A study of Mus musculus with 12 samples.

Results

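The 9 genes followed here mark adipocytes, the fat cells of the tissue in which the tumors were placed: Adipoq, Lep, Retn, Cfd, Fabp4, Plin1, Plin4, Cidec and Car3. They are 9 of the 55401 genes in the expression table, matched by symbol. The 9 were selected on measured values, namely their FPKM across these 12 tumors and 4 groups, so their levels and the differences between groups, with SE, interval and call from a fit over all genes, are given as a description, and nothing is read from the calls as a test. The samples were 12 tumors of 4T1, a mouse mammary carcinoma line, grown orthotopically in Balb/c mice, and each was sequenced as bulk RNA from tumor tissue. Each group held 3 tumors. The treatments were control IgG (by its label an isotype control, IgG1-Fc) and IL-10-Fc (interleukin-10 joined to an antibody Fc part). The others were aCSF1R (an antibody against CSF1R, the receptor on which many macrophages depend) and BF10 (a fusion of such an antibody with IL-10). All mice carried the same line, and treatment began at a tumor volume of 100 mm3, with 6 doses by the sample labels and 4 by the series description. The comparisons ask whether the level of fat cell RNA in the tumor bed differed between the treatments.

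The mouse mammary gland is a pad of white fat that holds epithelial ducts, vessels and a lymph node, and a tumor placed there grows against fat and into it. A mature white adipocyte stores triglyceride in a large droplet coated by perilipins, carries fatty acids on a binding protein, and secretes hormones such as adiponectin and leptin. In RNA from whole tissue, fewer fat cells and less of these RNAs per fat cell cannot be told apart.

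Levels are in TPM, a level per transcript length: the deposited FPKM of each library was divided by its sum over all genes and multiplied by 1000000. The libraries held an estimated 30500000 to 35850000 reads. In 5 libraries (BF10 replicate 6, aCSF1R replicate 8, control IgG replicates 4 and 7, IL-10-Fc replicate 7) the FPKM summed to over 700000, and these are called higher-sum libraries, a split made after seeing the data. The other 7 are called lower-sum libraries. The summed macrophage list was 85.9 to 272 TPM in the 3 aCSF1R tumors and 1524 to 2312 TPM in the other 9. The labels say no more than that the tumors are separate samples, so p-values measure the spread between these samples.

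Fat cell genes varied more from tumor to tumor than from group to group. Summed over the 9 genes, the level ran from 35.7 TPM in aCSF1R replicate 8 to 914 TPM in aCSF1R replicate 6. The lowest and the highest tumor thus belonged to the same group. The mean of log2(TPM + 1) over the 9 genes put the tumors in the order aCSF1R 6 (5.35), aCSF1R 4 (5.03), IL-10-Fc 2 (4.64), BF10 6 (4.59), control IgG 7 (3.90), BF10 7 (3.84), IL-10-Fc 4 (3.34), BF10 3 (3.15), control IgG 5 (2.28), IL-10-Fc 7 (1.88), control IgG 4 (1.11) and aCSF1R 8 (0.81). By group the same score was 3.86 ± 0.72 (SD, n = 3) in BF10, 3.73 ± 2.53 (SD, n = 3) in aCSF1R, 3.29 ± 1.38 (SD, n = 3) in IL-10-Fc and 2.43 ± 1.40 (SD, n = 3) in control IgG. The ranges of all 4 groups overlapped, and no neighbouring pair in that order differed by more than the SD of both groups. BF10 and control IgG, at its ends, differed by 1.43, a little more than the larger of their SDs (1.40). Of the 9 genes, 7 were highest in aCSF1R replicate 6 and 8 were lowest in aCSF1R replicate 8. Low values in aCSF1R replicate 8 were not particular to fat cell genes. That library had the fewest genes above 0 (23012). It also had the lowest sums of the endothelial, macrophage, carcinoma epithelial and mammary epithelial lists (71.7, 85.9, 669 and 398 TPM). It is a higher-sum library, and the endothelial, carcinoma epithelial and mammary epithelial sums of all higher-sum libraries lay below those of all lower-sum libraries. The adipogenic factor and adipocyte progenitor lists had their highest sums (504 and 1043 TPM) in aCSF1R replicate 8. Each of these sums came mostly from a single gene, Cebpb and Ly6a. By mean log2(TPM + 1) over the genes of each list, the same tumor was the lowest (2.22 and 2.55). In aCSF1R replicate 8 a single gene of the 9, Fabp4, reached 1 TPM, while all 9 did in aCSF1R 4, aCSF1R 6, BF10 6 and IL-10-Fc 2.

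**Figure D1:**
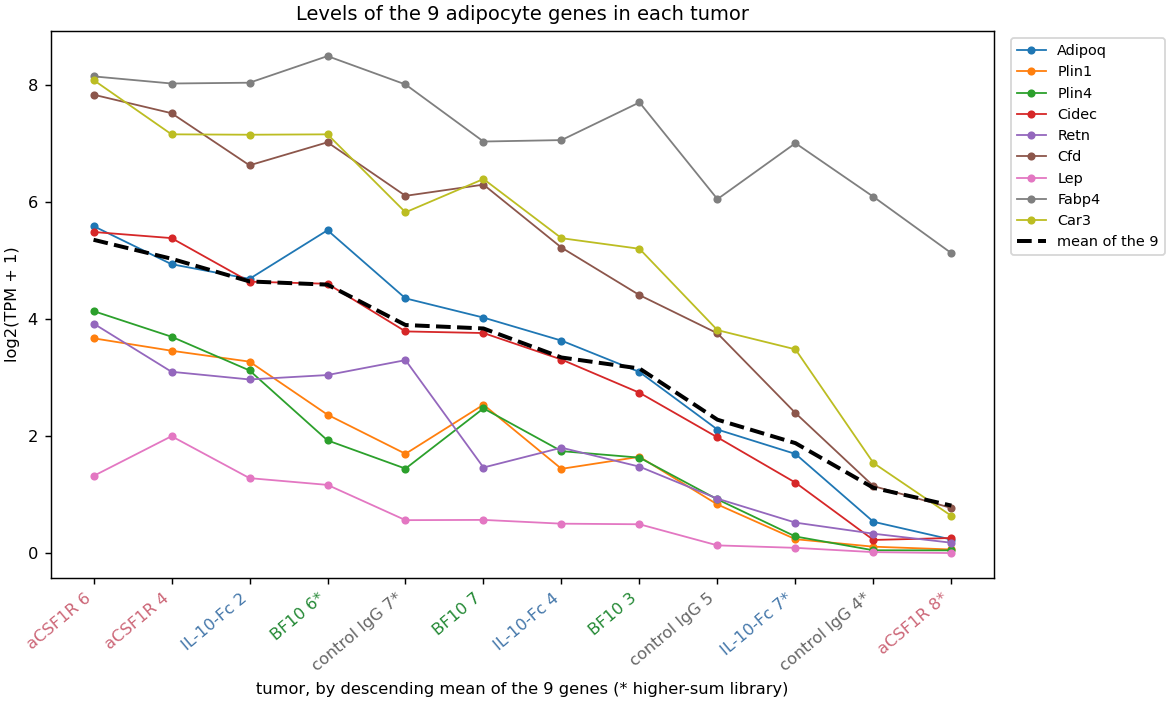
Level of each of the 9 adipocyte genes as log2(TPM + 1) (vertical axis) in the 12 tumors, which stand from left to right by descending mean of the 9 (dashed line), with label colors for the groups and an asterisk for higher-sum libraries. The 9 lines descend together from aCSF1R 6 (mean 5.35) to aCSF1R 8 (mean 0.81), and tumors of the 4 groups alternate along the axis.

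The secreted proteins came first by role. Adipoq (ENSMUSG00000022878, chr16:23146536-23158028, plus strand, GRCm38) encodes adiponectin, a hormone made almost only by adipocytes. Its level was 7.54, 44.8 and 15.3 TPM in BF10 replicates 3, 6 and 7, 29.6, 47.1 and 0.174 TPM in aCSF1R replicates 4, 6 and 8, 24.7, 11.4 and 2.24 TPM in IL-10-Fc replicates 2, 4 and 7, and 0.449, 3.32 and 19.4 TPM in control IgG replicates 4, 5 and 7. The groups overlapped, with 2 high and 1 very low tumor under aCSF1R and 1 high and 2 low tumors under control IgG. The mean was 22.5 ± 19.6 TPM (SD, n = 3) under BF10 and 25.6 ± 23.7 TPM (SD, n = 3) under aCSF1R, and 12.8 ± 11.3 TPM (SD, n = 3) under IL-10-Fc with 7.73 ± 10.2 TPM (SD, n = 3) under control IgG. The SD was thus near the mean, or above it, in each group. On the log2 scale the BF10 mean (4.21) stood above the aCSF1R mean (3.58), so the order of these groups depended on the scale. The tumors spanned a 271-fold range, and the lowest value rested on an estimated 2.31 to 6.05 reads, depending on the transcript length used.

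Cfd (ENSMUSG00000061780, chr10:79890853-79892655, plus strand) encodes adipsin, the complement factor D that fat cells release. It measured 20.2, 129 and 77.5 TPM in BF10 replicates 3, 6 and 7, 182, 227 and 0.705 TPM in aCSF1R replicates 4, 6 and 8, 97.7, 36.3 and 4.25 TPM in IL-10-Fc replicates 2, 4 and 7, and 1.21, 12.5 and 67.8 TPM in control IgG replicates 4, 5 and 7. The high and low tumors were those of Adipoq, and the groups again overlapped. Cfd spanned a 322-fold range, and the lowest value rested on an estimated 16.1 to 17.1 reads. Its level divided by that of Adipoq lay between 1.90 and 6.15 in the 12 tumors, a far narrower range than that of either gene.

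Lep (ENSMUSG00000059201, chr6:29060220-29073877, plus strand) encodes leptin, the hormone that reports fat stores to the brain. Its level was low throughout, at 0.407, 1.24 and 0.481 TPM in BF10 replicates 3, 6 and 7, 2.99, 1.49 and 0 TPM in aCSF1R replicates 4, 6 and 8, 1.43, 0.416 and 0.0639 TPM in IL-10-Fc replicates 2, 4 and 7, and 0.0112, 0.0953 and 0.477 TPM in control IgG replicates 4, 5 and 7. It reached 1 TPM in 4 tumors and was listed at 0 in aCSF1R replicate 8, so no fold is given. Retn (ENSMUSG00000012705, chr8:3655770-3660110, plus strand) encodes resistin, which mouse fat cells secrete. It measured 1.78, 7.24 and 1.75 TPM in BF10 replicates 3, 6 and 7, 7.56, 14.2 and 0.13 TPM in aCSF1R replicates 4, 6 and 8, 6.82, 2.48 and 0.434 TPM in IL-10-Fc replicates 2, 4 and 7, and 0.258, 0.905 and 8.83 TPM in control IgG replicates 4, 5 and 7. Control IgG replicate 7, with 4 tumors above it by the mean of the 9 genes, had a single tumor above it for Retn, and the range over the tumors was 109-fold.

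The stretches upstream of Adipoq, Cfd and Lep are shown because the first 2 genes had the most similar pattern of any pair among the 9 and Lep the least similar pattern to their mean. They were taken from RefSeq (GRCm38.p6), which gave a promoter window for 7 of the 9 genes, with 8 windows in all. The capitals mark matches, on either strand, to the C/EBP-type motif TTNNGCAA, the CCAAT box and the TATA-type motif TATAA. Adipoq is shown at chr16:23146286-23146535, Cfd at chr10:79890603-79890852 and Lep at chr6:29059971-29060219, each on the plus strand.
Adipoq: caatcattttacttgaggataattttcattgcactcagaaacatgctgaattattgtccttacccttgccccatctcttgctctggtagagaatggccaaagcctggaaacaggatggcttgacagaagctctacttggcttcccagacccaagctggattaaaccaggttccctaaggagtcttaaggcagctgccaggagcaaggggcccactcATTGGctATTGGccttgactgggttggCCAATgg
Cfd: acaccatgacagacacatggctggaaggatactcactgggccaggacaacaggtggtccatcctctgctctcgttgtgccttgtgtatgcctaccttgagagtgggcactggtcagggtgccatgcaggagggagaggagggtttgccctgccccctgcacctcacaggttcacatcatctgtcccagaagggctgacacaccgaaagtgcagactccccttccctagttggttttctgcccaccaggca
Lep: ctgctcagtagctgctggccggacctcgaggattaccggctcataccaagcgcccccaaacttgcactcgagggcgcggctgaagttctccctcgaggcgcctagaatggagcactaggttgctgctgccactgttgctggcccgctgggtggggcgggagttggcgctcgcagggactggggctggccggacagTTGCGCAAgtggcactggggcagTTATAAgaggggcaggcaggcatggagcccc
Adipoq held 3 CCAAT matches, which began 34, 27 and 7 bases before its RefSeq start, and 33.8% of the 32851 mouse promoter windows of this length held at least 1. Lep held TTGCGCAA, a special case of TTNNGCAA, 55 bases before its start, and 0.164% of all windows held that palindrome. Lep also held a TATAA match on each strand, which overlapped, 31 and 32 bases before the start, and 22.8% of all windows held one. No match to these motifs was present in the 250 bases before Cfd. TTNNGCAA occurred in 3 of the 8 windows (of Cidec, Lep and Plin1) and in 9.56% of all windows. The core AGGTCA of nuclear receptor sites, held by 14.0% of all windows, occurred in none of the 8, and neither did the DR1 element, its direct repeat around a single base, held by 0.0335%. These letters are a description of the windows, and no binding was measured.

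Next came the proteins of the fat droplet. Plin1 (ENSMUSG00000030546, chr7:79720218-79732903, minus strand) encodes perilipin 1, the coat protein that gates lipolysis on the adipocyte droplet. It measured 2.13, 4.15 and 4.80 TPM in BF10 replicates 3, 6 and 7, 9.98, 11.7 and 0.0434 TPM in aCSF1R replicates 4, 6 and 8, 8.65, 1.71 and 0.179 TPM in IL-10-Fc replicates 2, 4 and 7, and 0.0785, 0.778 and 2.24 TPM in control IgG replicates 4, 5 and 7. The 3 BF10 tumors lay close together, inside the range of the aCSF1R and of the IL-10-Fc tumors, and the lowest of them lay below control IgG replicate 7. Plin4 (ENSMUSG00000002831, chr17:56100591-56109803, minus strand) encodes another perilipin. Its values were 2.10, 2.80 and 4.55 TPM in BF10 replicates 3, 6 and 7, 11.97, 16.6 and 0.0326 TPM in aCSF1R replicates 4, 6 and 8, 7.70, 2.34 and 0.217 TPM in IL-10-Fc replicates 2, 4 and 7, and 0.0336, 0.889 and 1.72 TPM in control IgG replicates 4, 5 and 7. All 3 BF10 tumors stood above all 3 control IgG tumors, in a comparison in which 0% of all tested genes were called, and BF10 overlapped with both other groups. How many of all tested genes kept these 2 groups apart was not counted. In this comparison 12013 of the 15504 tested genes had the higher mean in BF10. No fold over the tumors is given for Plin1 or Plin4, whose lowest FPKM were 0.04 and 0.03 in a table with 2 decimals.

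Cidec (ENSMUSG00000030278, chr6:113424634-113435760, minus strand) encodes the protein that lets small droplets merge into a large one. It measured 5.68, 23.3 and 12.5 TPM in BF10 replicates 3, 6 and 7, 40.7, 43.8 and 0.195 TPM in aCSF1R replicates 4, 6 and 8, 23.9, 8.90 and 1.30 TPM in IL-10-Fc replicates 2, 4 and 7, and 0.168, 2.94 and 12.8 TPM in control IgG replicates 4, 5 and 7. Cidec was the gene closest to the common pattern of the 9, and it was lowest in control IgG replicate 4 rather than in aCSF1R replicate 8. Its values spanned a 261-fold range.

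Fabp4 (ENSMUSG00000062515, chr3:10204088-10208576, minus strand) encodes the fatty acid binding protein of adipocytes, which endothelial cells and macrophages also make. It was the most abundant of the 9, at 207, 359 and 130 TPM in BF10 replicates 3, 6 and 7, 259, 282 and 33.9 TPM in aCSF1R replicates 4, 6 and 8, 262, 132 and 127 TPM in IL-10-Fc replicates 2, 4 and 7, and 67.0, 65.2 and 256 TPM in control IgG replicates 4, 5 and 7. The range was 10.6-fold, the narrowest of those given. Where the other genes were nearly lost Fabp4 stayed: it made up 30.9% of the summed level of the 9 in aCSF1R replicate 6 and 94.9% in aCSF1R replicate 8. Per unit of Adipoq its level was 5.99 in aCSF1R replicate 6, 149 in control IgG replicate 4 and 195 in aCSF1R replicate 8. In the last tumor the summed endothelial list was at its minimum of 71.7 TPM, against a median of 230 TPM over the tumors, and the macrophage list at 85.9 TPM. That tumor is a higher-sum library. The endothelial sum was 71.7 to 163 TPM in the higher-sum libraries and 211 to 360 TPM in the lower-sum libraries. The part of endothelial cells and macrophages in the Fabp4 level was not tested.

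Car3 (ENSMUSG00000027559, chr3:14863512-14872523, plus strand) encodes carbonic anhydrase 3, abundant in fat and also in skeletal muscle. It measured 35.7, 141 and 83.0 TPM in BF10 replicates 3, 6 and 7, 142, 270.1 and 0.553 TPM in aCSF1R replicates 4, 6 and 8, 141, 40.7 and 10.2 TPM in IL-10-Fc replicates 2, 4 and 7, and 1.91, 13.0 and 55.6 TPM in control IgG replicates 4, 5 and 7. Its 488-fold range was the widest of the folds given, from a lowest value with an estimated 25.4 reads behind it. The summed skeletal muscle list was 6.84 to 19.8 TPM in 11 tumors and 71.3 TPM in IL-10-Fc replicate 7, where the muscle actin Acta1 reached 19.1 TPM. Car3 was low in that tumor, and its level per unit of Adipoq there (4.55) lay within the range over the 12 tumors (2.86 to 5.74) and was the highest of the 5 higher-sum libraries (median 3.19). Per unit of Cfd, the Car3 level in that tumor (2.39) was the highest of the 12, with a median of 1.11 and a next value of 1.77. The part of muscle in the Car3 level was not tested.

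**Figure D2:**
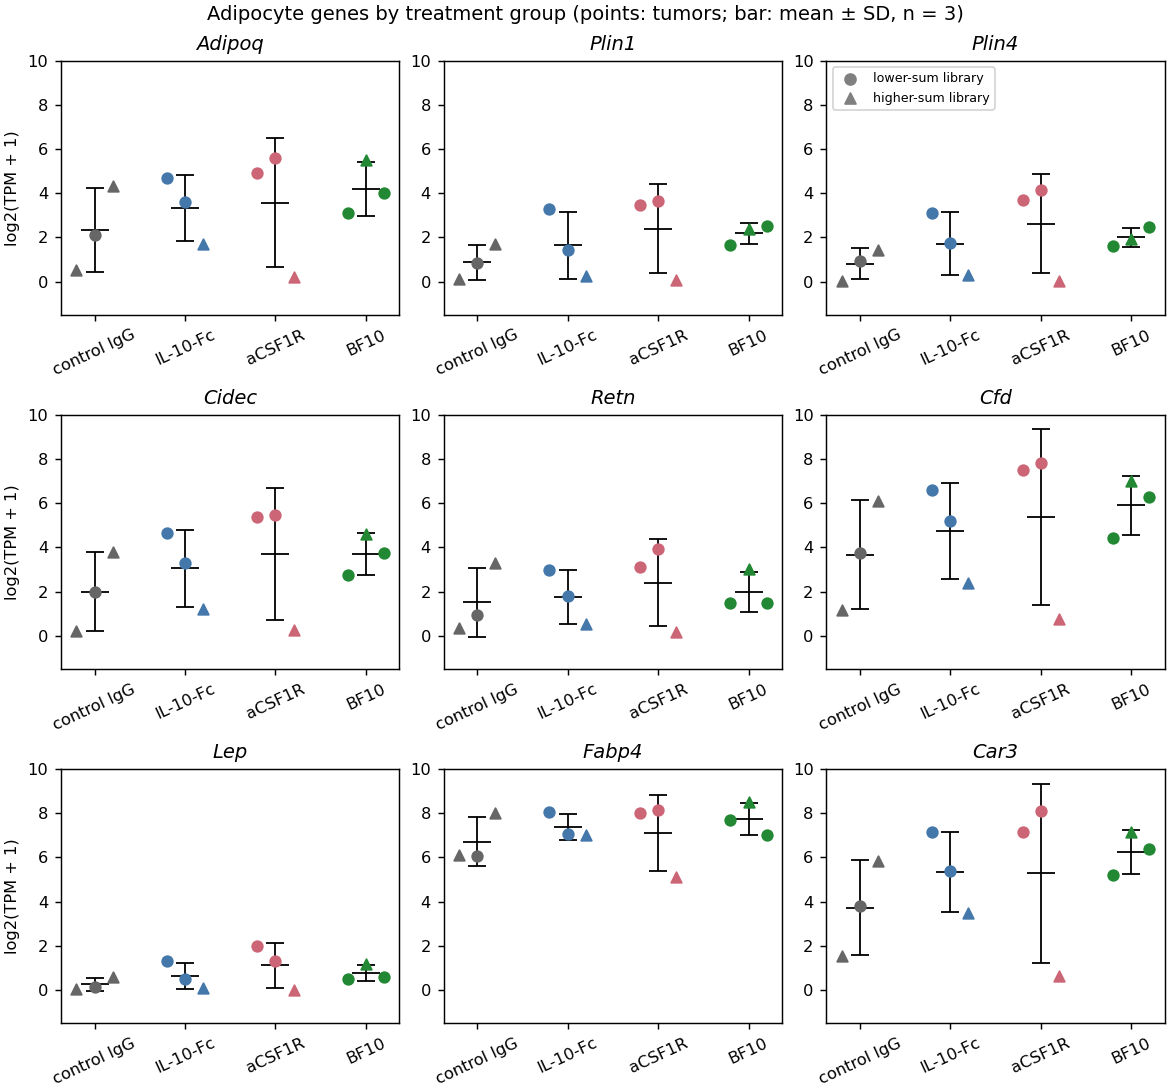
Each panel shows 1 gene as log2(TPM + 1) (vertical axis) in the 4 groups (horizontal axis), with a point for each tumor (triangles for higher-sum libraries) and the mean ± SD of n = 3. In the aCSF1R column 2 tumors sit high and replicate 8 near the floor in the panels other than Fabp4, and the points of the groups overlap.

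By mean TPM, aCSF1R was the highest group for 8 of the 9 genes and BF10 for Fabp4, and control IgG was the lowest for 8, with IL-10-Fc lowest for Retn. Cfd averaged 137 ± 120 TPM (SD, n = 3) under aCSF1R, 75.5 ± 54.2 TPM (SD, n = 3) under BF10, 46.1 ± 47.5 TPM (SD, n = 3) under IL-10-Fc and 27.2 ± 35.6 TPM (SD, n = 3) under control IgG. Plin4 averaged 9.52 ± 8.53 TPM (SD, n = 3) under aCSF1R, 3.15 ± 1.26 TPM (SD, n = 3) under BF10, 3.42 ± 3.85 TPM (SD, n = 3) under IL-10-Fc and 0.880 ± 0.842 TPM (SD, n = 3) under control IgG. Fabp4 averaged 192 ± 137 TPM (SD, n = 3) under aCSF1R, 232 ± 117 TPM (SD, n = 3) under BF10, 174 ± 76.2 TPM (SD, n = 3) under IL-10-Fc and 129 ± 110 TPM (SD, n = 3) under control IgG. For these genes the groups next to each other in order lay within the larger SD of the pair, except Plin4 under BF10 and control IgG. Plin4 was close in the 3 BF10 tumors and far apart in the 3 aCSF1R tumors.

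Against control IgG, all 9 genes had a higher mean log2(TPM + 1) in each of the treated groups. So did most of the 15504 tested genes: 12013 under BF10, 12350 under IL-10-Fc and 11402 under aCSF1R. The 9 genes also varied together over the tumors, so their shared direction is not 9 separate observations. In BF10 the difference was larger than the SD of both groups for Plin4, Plin1, Car3 and Lep, and it was not for the other genes or under aCSF1R and IL-10-Fc. How many of all tested genes met this mark was not counted, and Lep was near the floor in control IgG (0.0112 to 0.477 TPM). The 3 comparisons with control IgG share its tumors, so they are not independent of each other. In the fit of limma, which compared log2(TPM + 1) over 15504 genes and adjusted p by Benjamini-Hochberg, a gene was called where the adjusted p was under 0.05 and the difference at least 1.5-fold. For BF10 against control IgG, 0 of the 9 genes were called, and so were 0% of all genes tested. The median difference of the 9 was 1.30 (median SE 1.06), from 0.47 for Retn to 2.52 for Car3, and the median over all tested genes was 0.32. It was 2.24 ± 1.89 (SE) for Cfd, 1.70 ± 1.43 for Cidec, 1.21 ± 1.00 for Plin4 and 1.03 ± 0.81 for Fabp4. For Adipoq the difference was 1.88 ± 1.43 (SE, n = 3 a group), with a 95% interval from -1.27 to 5.03. For IL-10-Fc against control IgG, 0 of the 9 were called, with 0.00645% of all genes, and the median difference was 0.91, against 0.35 over all genes. For aCSF1R against control IgG, 0 of the 9 were called, with 0.568% of all genes. The median was 1.52, against 0.24 over all genes, from 0.38 for Fabp4 to 1.82 for Plin4.

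Among the treated groups the direction of the 9 genes was mixed. For BF10 against aCSF1R, 0 of the 9 were called, while 0.735% of all genes were. Car3, Fabp4, Adipoq and Cfd had the higher mean in BF10 and the other 5 in aCSF1R, with a median of -0.0083. For IL-10-Fc against aCSF1R, 0 of the 9 were called, with 0.542% of all genes, and 7 of the 9 had the lower mean in IL-10-Fc (median -0.63). For BF10 against IL-10-Fc, 0 of the 9 were called, as were 0% of all genes. All 9 means were higher in BF10, with a median of 0.53 against a median SE of 1.06, and so were those of 5537 of all 15504 tested genes. These calls draw on the values on which the 9 were selected, and nothing is read from them. All 54 intervals of the differences included 0, and their widths ran from 2.09 (Lep) to 8.35 (Cfd) on the log2 scale, which is the precision that 3 tumors a group gave. Leaving out any 1 tumor, the 9 genes again gave 0 calls in each comparison, as they did with the 7 lower-sum libraries alone, a choice made after seeing the data.

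**Figure D3:**
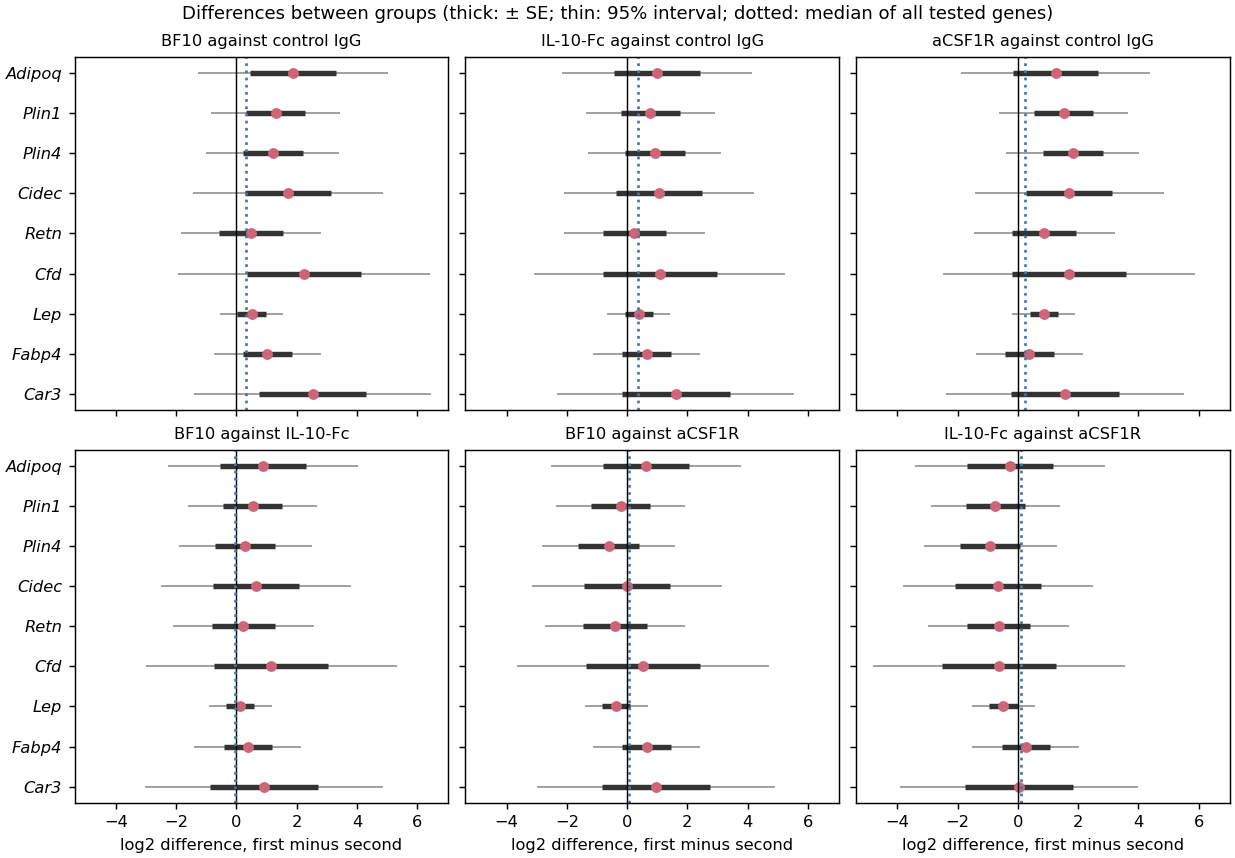
Difference in mean log2(TPM + 1) (horizontal axis, first group minus second) of each of the 9 genes in the 6 comparisons, with the SE as a thick line, the 95% interval as a thin line and the median of all 15504 tested genes as a dotted line. All 54 intervals include 0, and the points lie to the right of 0 in the 3 comparisons with control IgG.

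The size of the mean difference of the 9 genes hung on single tumors. For aCSF1R against control IgG it was 1.30 with all tumors, 2.76 without aCSF1R replicate 8, 2.03 without control IgG replicate 7, 0.64 without control IgG replicate 4, 0.65 without aCSF1R replicate 4 and 0.49 without aCSF1R replicate 6. For BF10 against aCSF1R it was 0.13, and it went to -1.33 without aCSF1R replicate 8, to -0.24 without BF10 replicate 6 and to 0.94 without aCSF1R replicate 6. The sign for IL-10-Fc against aCSF1R turned as well, from -0.44 to 0.20 without aCSF1R replicate 4, to 0.37 without aCSF1R replicate 6 and to 0.26 without replicate 7 of IL-10-Fc. The comparison of BF10 with IL-10-Fc went from 0.57 to -0.13 without IL-10-Fc replicate 7. The 2 other comparisons kept a positive sign with each tumor left out, from 0.77 to 2.16 for BF10 and from 0.18 to 1.59 for IL-10-Fc against control IgG. The median over all genes moved with single tumors as well. For aCSF1R against control IgG it was 0.24 with all tumors, 0.56 without aCSF1R replicate 8 and 0.061 without aCSF1R replicate 6. Within the lower-sum libraries alone control IgG had a single tumor. There the mean difference of the 9 genes was 1.22 under BF10, 1.71 under IL-10-Fc and 2.91 under aCSF1R relative to control IgG. It was -1.70 for BF10 against aCSF1R. The higher-sum libraries included the 3 lowest tumors of the 12, and also BF10 6 and control IgG 7, at places 4 and 5 from the highest. Library type was a term in an alternative fit. The mean difference from control IgG was then 1.00 under BF10, 0.43 under IL-10-Fc and 0.87 under aCSF1R. Without the term it was 1.43, 0.86 and 1.30. The median over all genes moved as well, from 0.32, 0.35 and 0.24 without the term to 0.068, 0.10 and 0.0068 with it. Beyond this fit, the part of the library type in those levels was not tested.

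**Figure D4:**
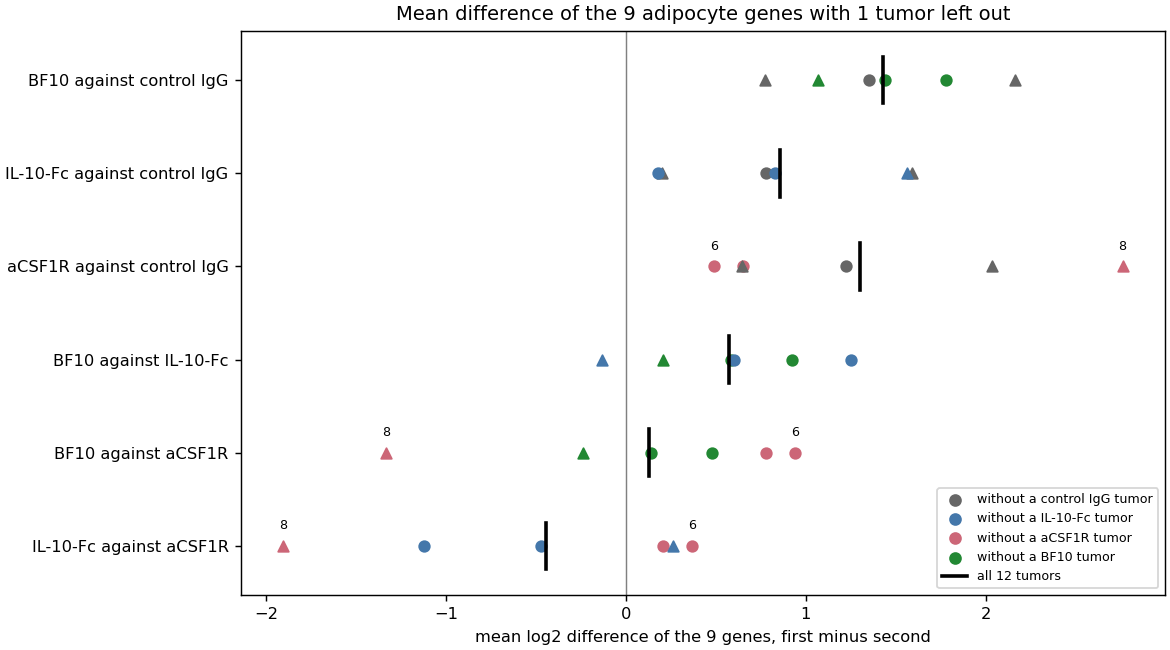
Mean log2 difference of the 9 genes (horizontal axis, first group minus second) in each comparison with all 12 tumors (black bars) and with 1 tumor of either group left out (points colored by the group of that tumor, triangles for higher-sum libraries). Points lie on both sides of 0 in the 3 lower rows, and the labels 8 and 6 mark the fits without those aCSF1R replicates, for example -1.33 and 0.94 for BF10 against aCSF1R.

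Spread within groups was wide for these genes. The within-group SD of log2(TPM + 1) had a median of 1.47 over the 9, against 0.54 over all 15504 tested genes. Among the 100 largest SDs of all tested genes were 4 of the 9: Cfd (2.67), Car3 (2.52), Adipoq (2.00) and Cidec (2.00). Differences between group means held a median of 15.5% of the variance of the 9 genes, against 16.7% over all tested genes, and from 6.79% for Retn to 26.3% for Lep. Since the genes were chosen for their levels in these tumors, this is a description.

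The 9 genes varied together over the tumors. Pearson's r between log2(TPM + 1) of 2 of the genes, after each was centred on the mean of its library type, was 0.79 to 0.99 over the 28 pairs without Fabp4 and 0.77 to 0.95 over the 8 pairs with Fabp4. These correlations are descriptions over the same 12 libraries, which share scale and depth, and carry no test. Ratios between the genes were less even. Over the 12 tumors the level per unit of Adipoq ran from 5.99 to 195 for Fabp4, from 0.115 to 0.75 for Retn, from 0.0625 to 0.404 for Plin4 and from 0.08 to 0.35 for Plin1. Plin4 per unit of Adipoq was 0.206 to 0.404 in the 7 lower-sum libraries and 0.0625 to 0.188 in the 5 higher-sum libraries, with no overlap. The same ratio for Cfd (2.68 to 6.15 and 1.90 to 4.06) and for Car3 (3.57 to 5.74 and 2.86 to 4.55) overlapped between the library types. The Plin4 transcripts are long, at 5755 nucleotides for the shorter, and the part of transcript length in this ratio was not tested.

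By r over the 12 tumors after the same centring, 10 genes outside the 9 followed their mean pattern most closely. They were Mrap (r = 0.99), an accessory protein of melanocortin receptors, Sncg (0.98), a synuclein found in fat, Gpd1 (0.97), which makes the glycerol phosphate of triglycerides, Lipe (0.97), the hormone-sensitive lipase, Adig (0.96), adipogenin, Serpina3c (0.96), a protease inhibitor, Cdo1 (0.96), a cysteine dioxygenase, Slc7a10 (0.95), an amino acid transporter, Apoc1 (0.95), an apolipoprotein, and Pcx (0.95), pyruvate carboxylase. All 10 were lowest in aCSF1R replicate 8, and 8 were highest in aCSF1R replicate 6. Of 15495 tested genes outside the 9, 17 had an r of at least 0.9, and the median r was 0.16. Over the 7 lower-sum libraries alone the r of the 10 was 0.95 to 0.99. These libraries were among the 12 used to pick the 10, so that range, like the shared lowest tumor, follows in part from the selection. The r of some list genes farther from the pattern moved, as for Lepr (-0.15 to -0.59), Cox7a1 (-0.10 to -0.81) and Ly6a (0.01 to 0.54). The nearest gene to Adipoq was Cfd (0.99) and the reverse, and Cfd was also nearest to Cidec (0.99). Nearest to Plin4 was Plin1 (0.98), to Plin1 Slc7a10 (0.99), to Car3 Lipe (0.99), to Fabp4 Lipe (0.95) and to Retn Cdo1 (0.97). The nearest gene to Lep was Snord88a (0.94), a small nucleolar RNA.

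Of 78 other genes of fat cell and lipid biology, in 6 lists, 67 were tested and 0 were called in any of the 6 comparisons by limma. At an unadjusted p under 0.05 in limma there were 3 of the 67 in each of the comparisons with aCSF1R in them and 0 in the others. Of all 15504 tested genes, 537 (against control IgG), 661 (against BF10) and 552 (against IL-10-Fc) were under 0.05 in the comparisons with aCSF1R. In the others the count over all genes was 234 for BF10 and 224 for IL-10-Fc against control IgG, and 42 for BF10 against IL-10-Fc. By r of at least 0.8 with the pattern of the 9 genes, 12 of the 67 followed it, 56 of the 15495 other tested genes did, and 11 of the 67 had an r below 0. The lists differed in how many of their genes did so.

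In the list of lipid droplet and lipolysis genes, Lipe, Pnpla3 and Pnpla2 had an r of at least 0.8 out of 11 tested. Lipe measured 14.3, 12.6 and 16.9 TPM in BF10 replicates 3, 6 and 7, 21.0, 27.4 and 2.55 TPM in aCSF1R replicates 4, 6 and 8, 22.4, 13.7 and 5.29 TPM in IL-10-Fc replicates 2, 4 and 7, and 3.62, 11.2 and 9.65 TPM in control IgG replicates 4, 5 and 7. Lipe thus had the same extremes as Adipoq, with overlapping groups, and differed by 0.88 ± 0.75 (SE, n = 3 a group) between BF10 and control IgG in limma (adjusted p = 0.788). Pnpla2, the lipase that begins lipolysis, ran from 10.7 to 64.5 TPM (r = 0.84). The 2 other abundant genes of the list did not follow. Plin2, the droplet coat protein of most cell types, was 98.6 to 207 TPM (r = 0.05), and Hilpda, which responds to low oxygen, was 26.6 to 103 TPM (r = -0.22). The lowest value of both fell in aCSF1R replicate 6, the tumor with the most Adipoq. The median difference of the 11 from control IgG was 0.34 under BF10, 0.39 under IL-10-Fc and 0.21 under aCSF1R. Over all tested genes it was 0.32, 0.35 and 0.24.

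Fatty acid uptake and synthesis genes gave 5 of 21 with an r of at least 0.8: Gpd1, Scd1, Slc2a4, Pck1 and Thrsp. Scd1, the stearoyl-CoA desaturase, ran from 6.83 TPM in control IgG replicate 4 to 192 TPM in IL-10-Fc replicate 2 (r = 0.94), and Pck1, of glyceroneogenesis in fat, from 0 to 7.66 TPM. Thrsp was listed at 0 in 2 tumors and reached 4.87 TPM in aCSF1R replicate 6. Among the most abundant of the list, Fasn, the fatty acid synthase, was 40.7 to 268 TPM (r = 0.63), Acly, which supplies acetyl-CoA, 13.6 to 128 TPM (r = 0.39), and Fabp5, a binding protein of other tissues, 73.0 to 225 TPM (r = -0.14). Lpl and Cd36, of fatty acid uptake, had an r of 0.77 each, and Cd36 had an r of 0.94 with Fabp4 alone. For these 21 the median difference from control IgG was 0.67 under BF10, 0.56 under IL-10-Fc and 0.61 under aCSF1R. Over all tested genes it was 0.32, 0.35 and 0.24.

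Adipogenic transcription factors did not reach an r of 0.8 in any of 10 tested genes. Pparg, the main regulator of fat cell fate, was 0.694 to 4.88 TPM (r = 0.75), and Srebf1, of lipid synthesis, 31.3 to 72.6 TPM (r = 0.60). Cebpb, an early factor also active in inflammation, was 169 to 440 TPM (r = -0.44), with its highest value in aCSF1R replicate 8. Cebpa, which acts in fat cells and in myeloid cells, had the smallest unadjusted p of the 67 genes in the comparisons of aCSF1R with control IgG and with BF10. It measured 9.66, 7.43 and 2.79 TPM in aCSF1R replicates 4, 6 and 8, and 20.6, 14.5 and 27.4 TPM in control IgG replicates 4, 5 and 7, so that these groups did not overlap, but 0.568% of all genes were called in that comparison and Cebpa was not. How many of all tested genes kept these 2 groups apart was not counted. The difference of Cebpa was -1.60 ± 0.41 (SE, n = 3 a group, adjusted p = 0.249 in limma). BF10 replicates 3, 6 and 7 had 20.0, 23.8 and 12.6 TPM, with a difference to aCSF1R of 1.46 ± 0.41 (SE, n = 3 a group; adjusted p = 0.311 in limma). The r of Cebpa with the 9 genes turned in sign with the libraries used, from 0.27 over the 12 tumors to -0.75 over the 7 lower-sum libraries. The 12 macrophage genes had a median r of -0.05 over the 12 tumors and an r from -0.85 to -0.55 over the lower-sum libraries. The macrophage list (85.9 to 272 TPM in aCSF1R, 1821 to 2312 TPM in control IgG) was lower in the same group. The part of macrophages in the Cebpa level was not tested.

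In the list of adipokines and hormone signalling, Adig, Nnat and Trarg1, the last a regulator of glucose transport in fat cells, had an r of at least 0.9 among 14 tested. Cavin1, a caveolar coat protein abundant in fat, was 56.1 to 225 TPM (r = 0.64), Adipor1, an adiponectin receptor, 24.6 to 107 TPM (r = 0.31), and Cav1, caveolin 1, 40.7 to 74.8 TPM (r = 0.07). Of the other receptors, Adipor2 for adiponectin had an r of 0.64 and Lepr for leptin an r of -0.15. The median difference of the list from control IgG was 0.32 under BF10, 0.29 under IL-10-Fc and 0.38 under aCSF1R, beside 0.31, 0.45 and 0.28 for the transcription factors. For all tested genes the median was 0.32, 0.35 and 0.24.

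Genes of brown or beige fat were low. Of 8 listed, 3 passed the filter of at least 1 TPM in 3 tumors. Ucp1, the uncoupling protein that defines brown fat, did not exceed 0.204 TPM, Cidea 0.188 TPM and Elovl3 0.328 TPM in any tumor. Cox8b ran from 0 to 4.15 TPM (r = 0.83), while Cox7a1 (1.83 to 5.76 TPM, r = -0.10) and Dio2 (1.48 to 5.26 TPM, r = -0.12) did not follow the 9 genes. The progenitor list, of fibroblast-like cells from which fat cells form, had no gene with an r of 0.8 among 9 tested. Its most abundant genes were Ly6a (155 to 1011 TPM, r = 0.01), Pi16 (7.54 to 129 TPM, r = 0.14) and Cd34 (8.18 to 45.5 TPM, r = 0.19). Ly6a was highest in aCSF1R replicate 8, where the mature fat cell genes were lowest. The median difference against control IgG was -0.17, -0.12 and -0.02 for the brown fat genes and 0.81, 0.70 and 0.25 for the progenitor genes in BF10, IL-10-Fc and aCSF1R. The same median over all tested genes was 0.32, 0.35 and 0.24.

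**Figure D5:**
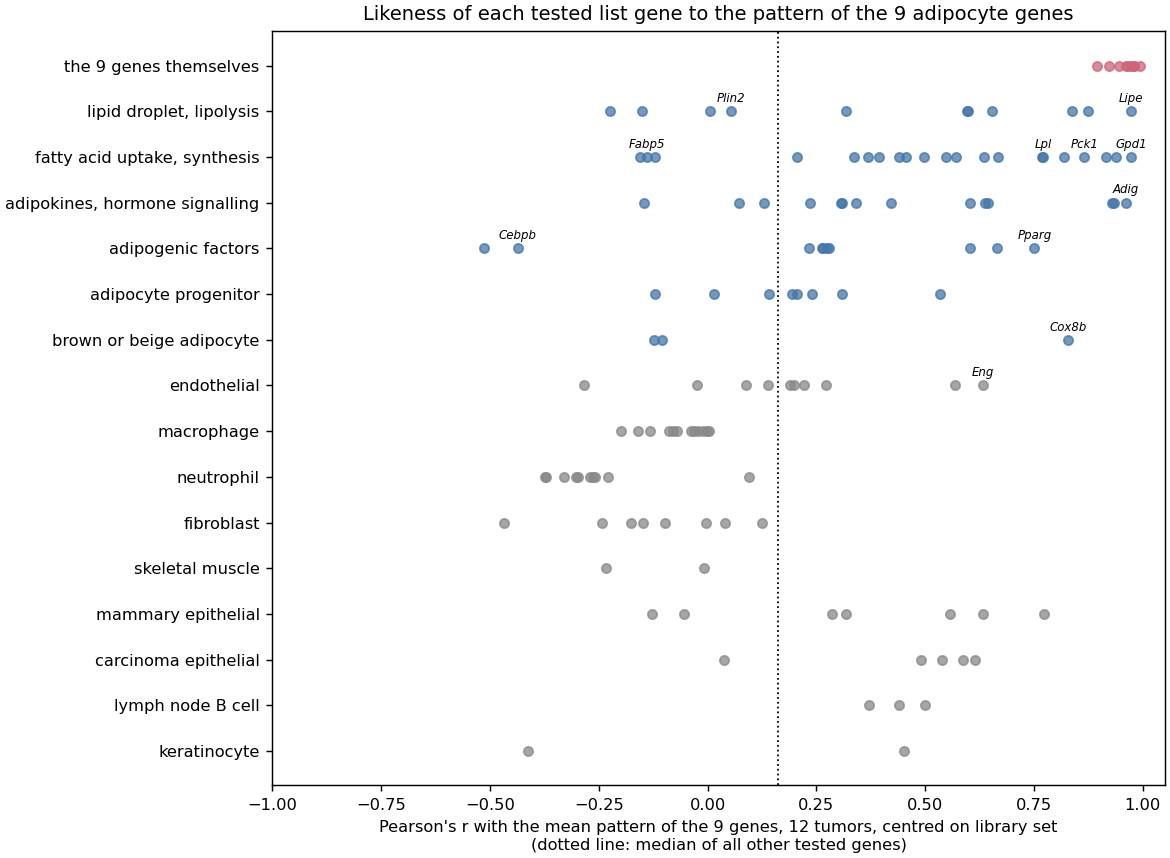
Pearson's r (horizontal axis) of each tested list gene with the mean pattern of the 9 adipocyte genes over the 12 tumors, after centring on the library type, with a row for each list and a dotted line at the median of all other tested genes (0.16). The 9 genes lie at 0.89 to 0.99, the lipid and adipokine lists spread from below 0 to 0.97, and the macrophage and neutrophil genes lie near 0 or below.

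Markers of other tissue in the sample were summed beside the fat cell genes. The carcinoma epithelial list was lowest in aCSF1R replicate 8 (669 TPM) and highest in aCSF1R replicate 6 (2319 TPM), the same tumors as for the 9 genes, and its 6 genes had a median r of 0.55. Its sum was 669 to 1445 TPM in the higher-sum libraries and 1613 to 2319 TPM in the lower-sum libraries. The mammary epithelial list ran from 398 to 1528 TPM (median r 0.32 over 7 tested genes), with the milk protein genes Csn1s1, Csn2 and Wap at 0.25 TPM or less in every tumor. This list shares Krt18 with the carcinoma epithelial list, so these sums are not independent and do not separate normal gland from tumor. The mammary sum was 398 to 928 TPM in the higher-sum libraries and 1060 to 1528 TPM in the lower-sum libraries. The endothelial list ran from 71.7 to 360 TPM (median r 0.19) and the fibroblast list from 1015 to 9650 TPM (median r -0.12). Neutrophil genes had a median r of -0.28 and a summed level of 526 TPM in aCSF1R replicate 6 and 19306 TPM in BF10 replicate 3. The keratinocyte list stayed at 7.05 to 27.3 TPM. The lymph node B cell list was 1.12 to 9.61 TPM in 11 tumors and 78.3 TPM in control IgG replicate 7, the control tumor with the most Adipoq (19.4 TPM), where Glycam1, made by mammary epithelium and lymph node vessels, reached 249 TPM. The part of nearby tissue in the sampled piece was not tested for any of these tumors.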

How the data were processed

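RNA from 12 tumors was sequenced by the authors with a stranded mRNA kit. The submitters' processing notes name STAR 2.7.5a, RSEM 1.3.3 and DESeq2 1.28.0 and the build mm10 (GRCm38). The deposited table gives FPKM per gene and library with 2 decimals, computed by the authors. 4 deposited tables of the authors' own comparisons (mean level, fold change and p-values) were not used. FPKM was rescaled to a library sum of 1000000 (TPM), since the sums ran from 609695 to 921581. Depth was estimated from the steps of low FPKM values in genes with 1 transcript, of which 54.1% to 60.1% a library came out whole within 0.1 reads, since FPKM holds no read totals. The 15504 genes with at least 1 TPM in 3 libraries were tested with limma 3.58.1 (R 4.3.3, trend, 1 mean a group, all 12 libraries in the fit) on log2(TPM + 1), a scale that understates changes of low genes. The limma script was tested on simulated data. The table held 34194 genes above 0. Gene positions came from GENCODE (GRCm38) and promoter windows from RefSeq (GRCm38.p6).

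The 9 genes and all gene lists were chosen with earlier results of these data known. Named beyond the 9 were, of the lipid lists, any gene called and the 3 most abundant of each list, then the 10 genes with the highest r with the mean standardised pattern of the 9, and each member's nearest gene. Other list genes were named after their values were seen. Alternatives were a pseudocount of 0.1, FPKM without rescaling, median-of-ratios scaling, no filter, library type as a term, only the 2 groups in the fit, a replicate block, each library left out, and, added after seeing the data, the 7 lower-sum libraries alone.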

Additional observations from a re-analysis of the deposited data

How the results depend on the processing

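Under 20 alternatives the 9 adipocyte genes and the 67 other lipid genes gave 0 calls in all 6 comparisons. Of 1074 differences of single adipocyte genes computed under an alternative, 21 moved by more than 1 SD and 0 were called. The counts over all genes depended on the setting. For aCSF1R against control IgG, BF10 against aCSF1R and IL-10-Fc against aCSF1R they were 88, 114 and 84, and 312, 437 and 330 with library type as a term, 4, 0 and 12 with only 2 groups in the fit, 31, 172 and 71 with the lower-sum libraries alone, 135, 142 and 75 with median-of-ratios scaling, and 55 to 90, 56 to 108 and 24 to 92 with 1 library left out; the causes were not tested. In the other 3 comparisons the count was 0 to 4 under every alternative run.

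The replicate numbers mark no shared animal, litter or batch in the labels, and groups share few of them. With the number as a replicate block, the counts over all genes in the comparisons with aCSF1R were 0, 1 and 1, and the adipocyte genes gave 0 calls. Their mean difference was 2.53 for aCSF1R against control IgG, -1.20 for BF10 against aCSF1R and -2.42 for IL-10-Fc against aCSF1R. It fell from 0.86 to 0.10 for IL-10-Fc against control IgG. It was 1.33 for BF10 against control IgG and 1.22 for BF10 against IL-10-Fc. The median over all genes moved with this block as well. For aCSF1R against control IgG it went from 0.24 to 0.93. For BF10 and IL-10-Fc against aCSF1R it went from 0.056 to -0.34 and from 0.11 to -0.40. For IL-10-Fc and BF10 against control IgG it went from 0.35 to 0.53 and from 0.32 to 0.62. This fit had few residual degrees of freedom.

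Median-of-ratios scaling moved the median difference of all genes against control IgG from 0.32 to 0.015 for BF10, from 0.35 to -0.0049 for IL-10-Fc and from 0.24 to 0.029 for aCSF1R, and the mean difference of the 9 genes was then 1.20, 0.54 and 0.97. With 3 tumors a group, low values such as those of Lep rest on a few reads, and the table of 2 decimals limits levels under 0.1 FPKM.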
